A study of Rattus norvegicus with 4 samples.

Results

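The chemokine genes followed here (Cxcl1, Cxcl2, Cxcl9, Cxcl10, Cxcl11, Cxcl12, Ccl2, Ccl5 and Cx3cl1) and the chemokine receptor gene Cxcr4 were measured in cultured rat ovaries, 10 genes of 14217 that had a probe set with 1 gene symbol. A probe set is a group of short array probes that reads 1 transcript. The members are the probe sets whose symbol is exactly one of these names, 15 probe sets in all. The genes were chosen by their signals on these same arrays, with the differences between GDNF and control and between replicate numbers already known, so both sets of values below describe the genes and test nothing about them. The tested samples were 2 pools of ovaries from 4-day-old rat pups kept for 2 days in organ culture with GDNF, glial cell line-derived neurotrophic factor, and the controls were 2 pools cultured without added factor. Each pool held 6 to 10 whole ovaries, and all 4 pools shared the same medium with albumin, Albumax, insulin (200 ng/ml), ascorbic acid, transferrin and antibiotics. No label states how much GDNF was added. Each pool was hybridised to 1 array, titles number the pools 1 and 2 in each group, and no label says whether a number marks a litter, a culture day or a batch, so the spread between replicates may be partly technical.

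Chemokines are small secreted proteins that steer cells along a gradient by binding receptors with a heptahelical fold. Inducible chemokines are transcribed on demand, many of them through the transcription factor NF-kB or through interferon signalling, and draw leukocytes into a tissue. Cxcl12 and its receptor Cxcr4 form a constitutive pair, and in the mouse they guide primordial germ cells to the gonad.

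The main pattern was a split by replicate number. In 8 of the 10 genes, and in 22.6% of all tested probe sets, both replicate 2 samples lay below both replicate 1 samples, whichever the treatment. The 8 genes were Cxcl1, Cxcl2, Cxcl9, Cxcl10, Cxcl11, Ccl2, Ccl5 and Cx3cl1. Cxcl10 was the widest, with a log2 difference of -2.11 (replicate 2 minus replicate 1, SE 0.17). Cxcl12 and Cxcr4 did not follow that split in their brightest probe sets, though without control replicate 1 both were lower in replicate 2 (-0.06 and -0.17). Cxcr4 was the 1 gene whose GDNF samples both lay above both control samples, in each of its 3 probe sets, with log2 differences of 0.32 to 0.45 (GDNF minus control). That order was found in 13.4% of all tested probe sets.

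Of the whole table, 18625 probe sets had a mean log2 signal at or above the 40th percentile and were tested. That filter kept 14 of the 15 member probe sets. Median signal was 41.1 and 36.7 in GDNF replicates 1 and 2 and 40 and 38.6 in control replicates 1 and 2. Both replicate 2 arrays thus had a lower median than both replicate 1 arrays. GDNF replicate 1 stood apart in the array's beta-actin controls: its beta-actin 3' to 5' ratio was 2.62, against 3.34 to 3.76 in the other 3 samples, and its 5' beta-actin signal was 1015.4, against 397.3 to 557. In the Gapdh controls the 3' to 5' ratio was 1.11 and 1.44 in GDNF replicates 1 and 2, against 1.28 and 1.22 in control replicates 1 and 2, so the GDNF samples were the lowest and the highest. The oocyte markers measured (8 of 12 listed) had no signal of 0 in any sample, and their summed signal was 5653 and 7123 in GDNF replicates 1 and 2 and 4366.1 and 5461 in control replicates 1 and 2. Whole ovaries were measured, so fewer cells of a type and less RNA per cell cannot be told apart.

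The stretches of DNA just before the genes are shown first, because the genes that split by number include neighbours: Cxcl11, Cxcl10 and Cxcl9 are consecutive protein-coding genes on chromosome 14, and Cxcl2 and Cxcl1 are next to each other on the same chromosome. The RefSeq promoter table of build GRCr8 held 8 of the 10 genes, and Ccl2 and Ccl5 were not matched. The windows of Cxcl12 and Cx3cl1, which held no match to the motifs below, are not printed. Each sequence below runs 5′ to 3′ on the gene's own strand, from 250 bases before the transcription start to 50 bases after it. Capitals mark matches on either strand to the NF-kB consensus, to a core of the interferon-stimulated response element (GAAA, any 2 bases, GAAA) and to TGANTCA (an AP-1 site).
Cxcl10, chr14:15988816-15989115, plus strand: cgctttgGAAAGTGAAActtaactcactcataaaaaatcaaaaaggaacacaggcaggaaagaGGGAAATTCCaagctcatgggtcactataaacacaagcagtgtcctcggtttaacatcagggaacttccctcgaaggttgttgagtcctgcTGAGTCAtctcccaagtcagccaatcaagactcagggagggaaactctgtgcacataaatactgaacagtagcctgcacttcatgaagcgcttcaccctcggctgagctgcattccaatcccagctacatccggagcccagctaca
Cxcl11, chr14:15973478-15973777, plus strand: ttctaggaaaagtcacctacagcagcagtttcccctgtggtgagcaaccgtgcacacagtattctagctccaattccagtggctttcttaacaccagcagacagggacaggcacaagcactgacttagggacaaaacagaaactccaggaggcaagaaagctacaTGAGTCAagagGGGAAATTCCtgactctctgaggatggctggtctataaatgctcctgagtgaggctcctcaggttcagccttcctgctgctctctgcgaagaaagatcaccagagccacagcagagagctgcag
Cxcl9, chr14:16006916-16007215, plus strand: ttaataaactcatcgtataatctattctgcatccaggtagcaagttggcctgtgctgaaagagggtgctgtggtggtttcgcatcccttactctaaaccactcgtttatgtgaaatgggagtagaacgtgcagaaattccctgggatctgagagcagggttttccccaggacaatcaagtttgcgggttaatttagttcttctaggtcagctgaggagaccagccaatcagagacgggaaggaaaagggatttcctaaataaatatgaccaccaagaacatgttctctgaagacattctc
Cxcl1, chr14:17479272-17479571, minus strand: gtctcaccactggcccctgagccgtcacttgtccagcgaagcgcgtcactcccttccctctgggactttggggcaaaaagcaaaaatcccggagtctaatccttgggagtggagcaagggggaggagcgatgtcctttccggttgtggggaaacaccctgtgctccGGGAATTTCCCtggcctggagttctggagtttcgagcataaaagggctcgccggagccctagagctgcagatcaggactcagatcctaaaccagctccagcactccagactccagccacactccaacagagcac
Cxcl2, chr14:17467206-17467505, minus strand: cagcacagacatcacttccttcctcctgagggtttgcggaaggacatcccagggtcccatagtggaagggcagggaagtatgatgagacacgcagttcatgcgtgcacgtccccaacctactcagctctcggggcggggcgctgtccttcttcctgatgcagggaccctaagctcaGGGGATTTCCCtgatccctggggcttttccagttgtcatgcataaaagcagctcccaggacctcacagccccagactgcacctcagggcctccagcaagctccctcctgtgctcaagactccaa
Cxcr4, chr13:42634239-42634538, minus strand: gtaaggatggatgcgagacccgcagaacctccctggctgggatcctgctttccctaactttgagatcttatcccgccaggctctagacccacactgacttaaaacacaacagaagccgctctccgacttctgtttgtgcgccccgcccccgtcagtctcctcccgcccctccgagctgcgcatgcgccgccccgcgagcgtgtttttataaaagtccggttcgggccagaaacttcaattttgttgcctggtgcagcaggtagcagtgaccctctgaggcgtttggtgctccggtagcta

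The NF-kB consensus was matched in 4 of the 8 windows (Cxcl1, Cxcl2, Cxcl10 and Cxcl11), and in 4.18% of the 33469 promoters of the table. In Cxcl1 and in Cxcl2 it matched at 2 places shifted by a base, which overlap and are printed as 1 run. The 10 letters GGGAAATTCC stood at -187 to -178 from the start in Cxcl10 and at -74 to -65 in Cxcl11. The interferon element core was matched in 1 window, Cxcl10 (3.92% of all promoters), and the AP-1 site in 2, Cxcl10 and Cxcl11 (7.33%). The windows of Cxcl9, Cxcl12, Cxcr4 and Cx3cl1 held none of these letters. A match is only a run of letters, and factor binding was not measured.

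Cxcl9, Cxcl10 and Cxcl11 encode the ligands of the receptor Cxcr3, known as interferon-inducible chemokines that attract activated T cells. Cxcl10 had a signal of 47.1 and 53.0 in the GDNF and control samples numbered 2, against 239.5 and 201.4 in the GDNF and control samples numbered 1. The numbers were far apart and the treatments overlapped: the log2 difference was -2.32 within GDNF and -1.91 within control between the numbers, and 0.04 between GDNF and control (SE 0.81). Its probe set was among the 6 lowest of the 18625 in the difference by number.

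Cxcl11 had 22.7 and 28.3 in the GDNF and control samples numbered 2, against 86.3 and 60.4 in those numbered 1. That is a log2 difference of -1.47 (SE 0.25) by number and 0.10 (SE 0.61) by treatment. Cxcl9 had 16.8 and 16.3 in the GDNF and control samples numbered 2, against 35 and 38.2 in those numbered 1, or -1.10 (SE 0.27) by number and -0.04 (SE 0.49) by treatment. Both genes split by number. GDNF and control were close together within a number in Cxcl9 (-0.12 and 0.04 within numbers 1 and 2), and less so in Cxcl11 (0.51 and -0.31). Cxcl9's replicate 2 samples lay below the signal of about 21.4 at the filter, which its probe set passed through the replicate 1 samples. Its dimmer probe set did not pass, with 6.2 and 2.0 in samples numbered 2 and 16.3 and 23.4 in samples numbered 1, GDNF before control in each pair.

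Cxcl1 and Cxcl2 encode ligands of the receptor Cxcr2 that attract neutrophils. Cxcl1 had 275.4 and 263.4 in the GDNF and control samples numbered 2, against 331.3 and 426.0 in those numbered 1, a log2 difference of -0.48 (SE 0.13) by number. Cxcl2 was dimmer, with 17.6 and 20.8 against 24.9 and 35.4 in the same order, or -0.61 (SE 0.29) by number. Its replicate 2 samples also lay below the signal at the filter, which its probe set passed through the replicate 1 samples. By treatment the differences were -0.15 (SE 0.23) for Cxcl1 and -0.36 (SE 0.36) for Cxcl2, with overlapping groups, and both turned positive without control replicate 1 (0.20 and 0.0098). Cxcl1, Cxcl2 and Cxcl3 are close paralogs, and how far their probes share targets was not tested.

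Ccl2, Ccl5 and Cx3cl1 draw monocytes and T cells. Ccl2, the ligand of Ccr2, had 895.7 and 987.7 in the GDNF and control samples numbered 2, against 1346.5 and 1477.2 in those numbered 1. Its log2 difference was -0.59 within GDNF and -0.58 within control between the numbers, and -0.13 and -0.14 between GDNF and control within numbers 1 and 2. The gap by number was therefore nearly the same in both treatments.

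Ccl5, an attractant of T cells, had 42.2 and 56.3 in the GDNF and control samples numbered 2, against 123.6 and 103.1 in those numbered 1, a log2 difference of -1.19 (SE 0.20) by number and -0.07 (SE 0.50) by treatment. Cx3cl1, the membrane-bound ligand of Cx3cr1, had 88.1 and 82.9 against 114.7 and 136.3 in the same order, or -0.54 (SE 0.16) by number and -0.08 (SE 0.26) by treatment. Neither gene kept 1 direction between GDNF and control: Ccl5 was higher in GDNF within number 1 (0.26) and lower within number 2 (-0.41), and Cx3cl1 was lower in GDNF within number 1 (-0.25) and higher within number 2 (0.09).

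**Figure D1:**
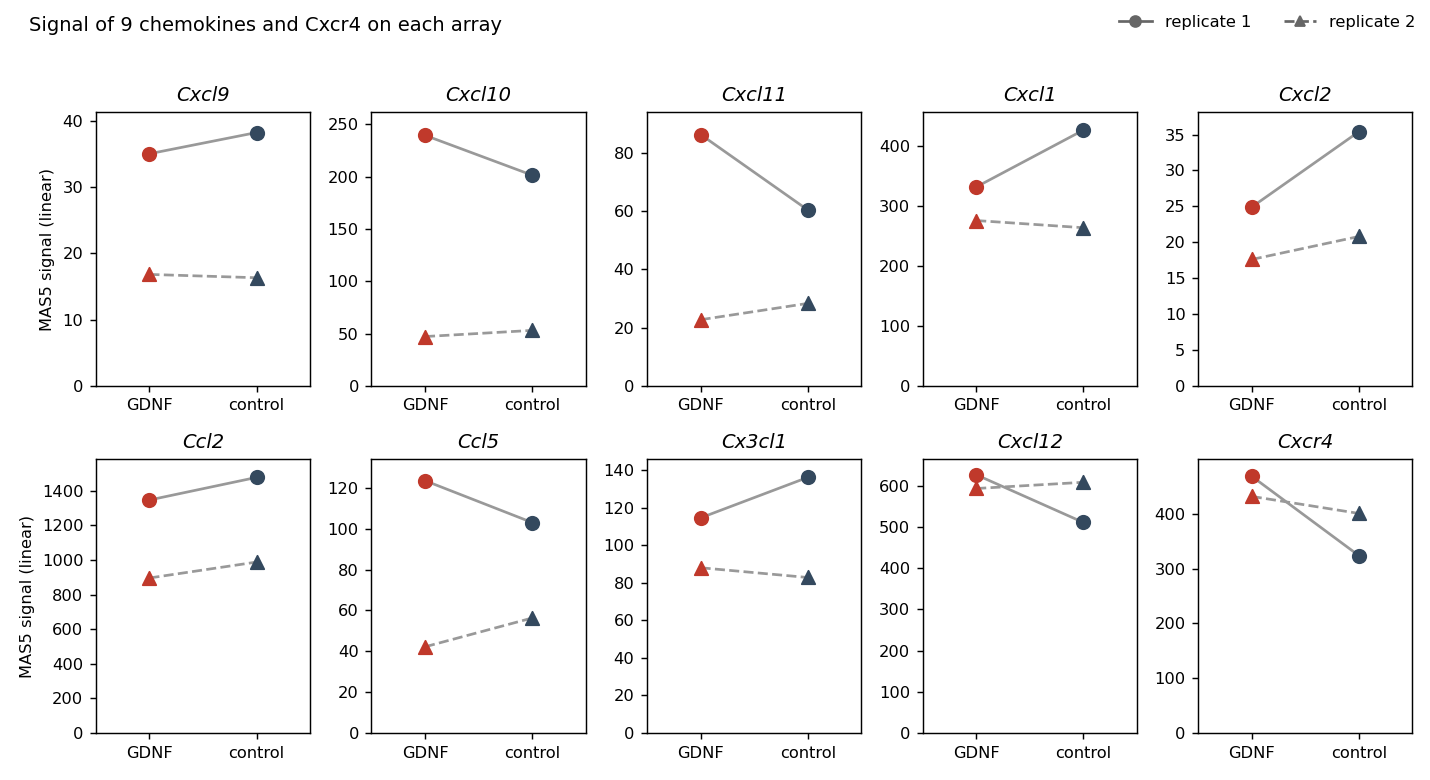
MAS5 signal (vertical axis, linear, from 0) of the brightest probe set of each of the 10 genes, with GDNF left of control. Each point is 1 array, circles and solid lines join the samples numbered 1, and triangles and dashed lines those numbered 2. In 8 genes the triangles lie below the circles at both treatments, and in Cxcl12 and Cxcr4 the lines cross.

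Cxcr4 had a signal of 468.9 and 432.2 in GDNF replicates 1 and 2, against 324.0 and 401.1 in control replicates 1 and 2, in its brightest probe set. The other probe sets gave 308.1 and 299.7 in GDNF against 194.2 and 253.3 in control, and 240.7 and 175.0 in GDNF against 137.9 and 174.0 in control. No probe set overlapped between the treatments, though in the dimmest of them GDNF replicate 2 and control replicate 2 differed by 1 unit of signal. The log2 differences were 0.32 (SE 0.14), 0.45 (SE 0.15) and 0.40 (SE 0.20).

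Most of this difference lay within number 1. There the log2 difference between GDNF and control was 0.53, 0.66 and 0.80 in the 3 probe sets, against 0.11, 0.24 and 0.01 within number 2. Without overlap between the treatments, leaving out 1 sample could not turn a sign, and the 3 probe sets together then ran from 0.17 to 0.64. The brightest and the second probe set were designed on the same source sequence, and the brightest carries the suffix that marks probes shared with other transcripts, so the 3 readings are not independent. GDNF replicate 1, which was highest in all of them, is the array that stood apart in the beta-actin controls. Oocyte and granulosa cell markers differed by treatment in the same direction as Cxcr4. Of 8 oocyte markers 7 had a higher mean in GDNF (median log2 difference 0.47), and of 8 granulosa markers 7 did (median 0.43), with a summed granulosa signal of 3414.6 and 2850.2 in GDNF replicates 1 and 2 against 2743.5 and 2438.2 in control replicates 1 and 2. The oocyte median was 0.27 without control replicate 1, and the granulosa median 0.23 without GDNF replicate 1. Limma called 0 genes of either list. The parts of RNA quality and of these cells in the Cxcr4 difference were not tested.

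Cxcl12, the ligand of Cxcr4, had 627.0 and 593.6 in GDNF replicates 1 and 2, against 511.2 and 608.7 in control replicates 1 and 2. A second probe set had 501.9 and 453.4 in GDNF against 400.3 and 453.6 in control. In both, control replicate 1 was the lowest sample and the treatments overlapped, with log2 differences of 0.13 (SE 0.12) and 0.16 (SE 0.12). The third and dimmest probe set behaved otherwise. It had 108.8 and 54.3 in GDNF against 70.7 and 70.4 in control, so that GDNF replicates 1 and 2 were its highest and its lowest sample (0.12 by treatment, SE 0.31, and -0.37 without GDNF replicate 1). By number that probe set had a log2 difference of -0.50 (SE 0.23), against 0.09 and 0.02 in the brighter ones. That gap lay in the GDNF pair, at -0.99 within GDNF and -0.0060 within control, and ran from -0.81 to -0.19 with 1 sample left out.

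**Figure D2:**
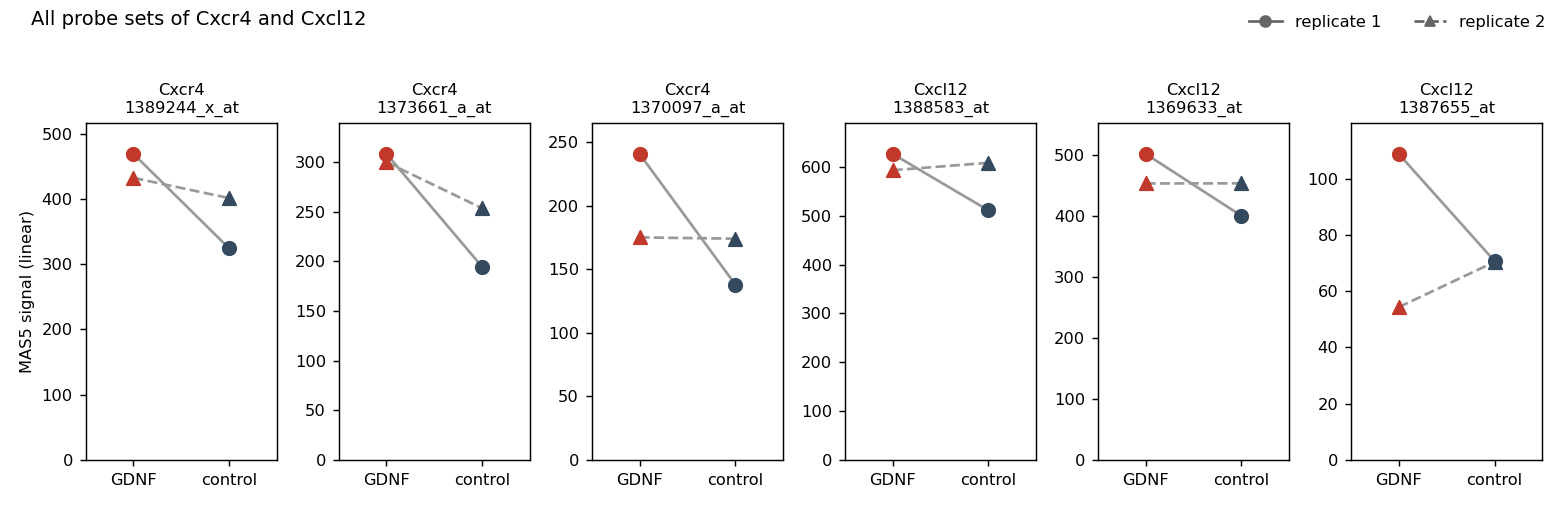
MAS5 signal (linear, from 0) of all 3 probe sets of Cxcr4 and all 3 of Cxcl12, GDNF left of control, 1 point an array, with lines joining samples of the same number. Control replicate 1 is the lowest sample in all 3 Cxcr4 probe sets and in the 2 brighter Cxcl12 probe sets, and the dimmest Cxcl12 probe set has both its extremes in GDNF.

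Set against the table, these counts read as follows. By treatment, limma called 0 of the 14 member probe sets and 0% of all tested probe sets at an adjusted p under 0.05. At an unadjusted p under 0.05 it was 1 of 14 members and 2.73% of all. Both GDNF samples lay above both control samples in 3 of 14 member probe sets, all of Cxcr4, and in 13.4% of all, and no member had both below (16.6% of all). The mean was higher in GDNF in 4 of the 10 genes and in 48.5% of all tested probe sets. The median log2 difference over the 10 genes was -0.06, against -0.0067 over all tested probe sets.

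By number, limma called 4 of the 14 member probe sets (Cxcl10, Cxcl11, Ccl2 and Ccl5, all lower in replicate 2), and 0.462% of all tested probe sets in either direction or 0.376% lower. At an unadjusted p under 0.05 it was 7 of 14 members and 12.8% of all. Both replicate 2 samples lay below both replicate 1 samples in 9 of 14 member probe sets, and in 22.6% of all, while both lay above in 0 of 14 and in 20.9% of all. With a difference of at least 1.5-fold as well it was 5 of 14, and 3.77% of all. The 9 include the dimmest Cxcl12 probe set, and both counts include Cxcl2 and Cxcl9, which passed the filter through the replicate 1 samples. The median over the 10 genes was -0.60, against -0.01 over all tested probe sets. Since the genes were listed with this split known, nothing is read from these shares. The call of Cxcl10 held without any 1 sample, while Cxcl11, Ccl2 and Ccl5 were not called without GDNF replicate 2. Cxcl11 and Ccl5 were not called without GDNF replicate 1 either, nor was Ccl2 without either control sample. Without limma's mean-variance trend no member was called.

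**Figure D3:**
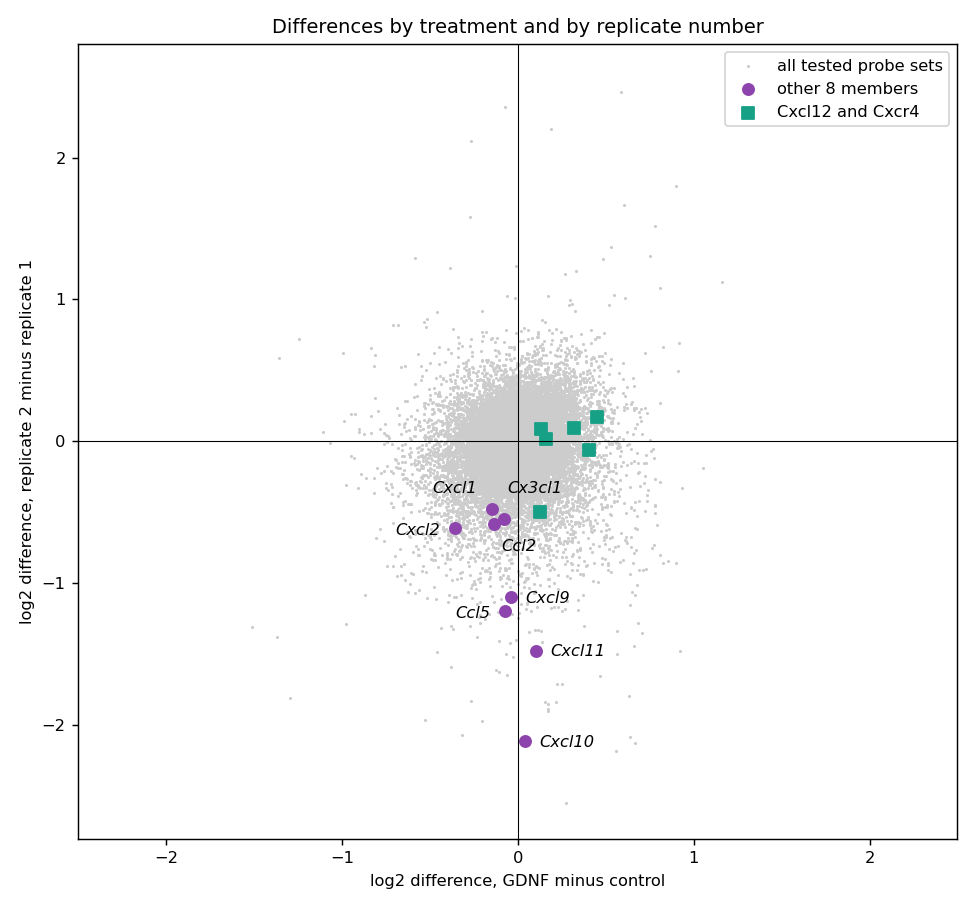
Log2 difference between GDNF and control (horizontal axis) against log2 difference between replicate 2 and replicate 1 (vertical axis), 1 point a probe set. Grey points are all tested probe sets (3 lie outside the axes), circles are the 8 other members and squares the probe sets of Cxcl12 and Cxcr4. The circles run down the vertical axis to Cxcl10 at -2.11, and the 3 Cxcr4 squares lie to the right at 0.32 to 0.45.

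The rest of the chemokine family was looked at through lists. Of 26 other chemokine ligands 22 had a probe set and 14 were tested. By treatment 0 were called by limma, and by number 1 was (0.462% of all tested probe sets were). This was Cxcl13, an attractant of B cells, named after its values were seen. It had 191.8 and 223.9 in the GDNF and control samples numbered 2, against 322.3 and 361.7 in those numbered 1 (log2 difference -0.72, SE 0.13, limma adjusted p = 0.0323). The adjusted p was 0.472 without GDNF replicate 2, 0.0652 without control replicate 1 and 0.0522 without control replicate 2. Over the 22 ligands 14 had a lower and 8 a higher mean in replicate 2, with a median of -0.32, against -0.15 without GDNF replicate 2 and -0.12 with a pseudocount of 16.

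Values within that list ranged widely. Ccl7, the protein-coding gene next to Ccl2, had 138.4 and 132.9 in the GDNF and control samples numbered 2, against 220.1 and 211 in those numbered 1. Its log2 difference was -0.66 by number (SE 0.13, limma adjusted p = 0.0566). Cxcl3, a neutrophil attractant beside Cxcl1 and Cxcl2 in function, had a log2 difference of -1.09 (SE 0.31) by number, and Ccl3, an attractant of monocytes, had -0.83 (SE 0.19). The Cxcl3 gap was -0.56 within GDNF and -1.61 within control, where its replicate 2 signal of 14.7 lay below that at the filter. Ccl20, the ligand of Ccr6, ran the opposite way, with 106.2 and 75.3 in the GDNF and control samples numbered 2, against 39.9 and 15.5 in those numbered 1 (1.80, SE 0.36, limma adjusted p = 0.0566, and from 0.000115 without GDNF replicate 1 to 0.633 without GDNF replicate 2). It was also the highest of the list by treatment (0.90, SE 0.72, and -0.20 without control replicate 1). Cxcl14 had 0.35 (SE 0.15) by number and Ccl27 had -0.28 (SE 0.25) by treatment. Cxcl16 had -0.26 (SE 0.20) by treatment and -0.46 (SE 0.13) by number. None of these was called.

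Receptors were mostly dim. Of 22 other chemokine receptors 16 had a probe set and 4 passed the filter, none called by treatment or by number. Ackr3, the scavenging receptor of Cxcl12, had 388.9 and 457.6 in GDNF against 408.8 and 364.1 in control replicates 1 and 2 (0.13, SE 0.13). The main receptors of the inducible ligands lay below the filter, with signals of 6.0 to 10.2 for Cxcr3, 0.4 to 6.0 for Cxcr2, 0.3 to 5.0 for Ccr2 and 9.6 to 14.6 for Cx3cr1 over the 4 samples, so their differences carry no weight. Ackr4 (0.34, SE 0.19) and Ccrl2 (-0.24, SE 0.21) differed more by number than by treatment, and Cxcr5 had -0.15 (SE 0.24) by treatment.

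Among proteases that act on chemokines, Adam10 and Adam17 release Cx3cl1 from the membrane and Dpp4 trims Cxcl10 and Cxcl12. Adam17 had 436.6 and 404.2 in GDNF against 367.8 and 363.8 in control replicates 1 and 2 (0.20, SE 0.11), without overlap. Both GDNF samples lay above both control samples in 13.4% of all tested probe sets. Adam10 (-0.64, SE 0.22) and Dpp4 (-0.65, SE 0.25) were lower in both replicate 2 samples, as 22.6% of all tested probe sets were. None of the 3 was called.

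Target genes of the pathways known to induce chemokines were also compared by number. All 18 NF-kB target genes with a probe set had a lower mean in replicate 2 (52.5% of all tested probe sets did), with a median of -0.40, and none of the 16 tested was called. It was 17 of 18 after median centring or quantile normalization, and 16 without GDNF replicate 1 or without control replicate 2. Il1a, which encodes interleukin 1 alpha, had the lowest value of those tested, -1.10 (SE 0.30), with replicate 2 signals of 14.4 and 21.3 below that at the filter, which it passed through the replicate 1 samples (32.4 and 46.3, GDNF before control in each pair). In the same list Ptgs2, the inducible cyclooxygenase, had -0.65 (SE 0.22). By treatment Nfkbia, the inhibitor that NF-kB induces, had 597.2 and 553.7 in GDNF against 508.7 and 459.9 in control replicates 1 and 2 (0.25, SE 0.11), and Birc3 had 0.26 (SE 0.16), both without overlap. These were the 2 of 16 tested genes with both GDNF samples above both control samples, against 13.4% of all tested probe sets. Il1a (-0.52, SE 0.49) and Tnfaip2 (-0.49, SE 0.25) were the lowest by treatment and Csf1 was nearly level by number (-0.04). The median of the list by treatment was -0.12, and it turned to 0.07 without GDNF replicate 2 and to 0.05 without control replicate 1.

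All 19 interferon target genes measured had a lower mean in replicate 2, with a median of -0.46, and 18 of 19 after median centring, which turned Irf1 (0.08). It was 16 of 19 (median -0.32) without GDNF replicate 2, and the median was -0.25 without control replicate 1. Limma called 4, all lower, against 0.376% of all tested probe sets, and the list was written with earlier results of these data known. Rsad2, an antiviral enzyme, had 129.6 and 122.7 in the GDNF and control samples numbered 2, against 286.0 and 298.4 in those numbered 1 (-1.21, SE 0.13, limma adjusted p = 0.00129). Ifit3 had -1.09 (SE 0.18, adjusted p = 0.0195), and Mx1 (-1.08, adjusted p = 0.0178) and Isg15 (-0.80, adjusted p = 0.0288) were named after their values were seen. Without GDNF replicate 2 only Rsad2 of the 4 was called (limma adjusted p = 0.0322). Ifit3 was also not called without control replicate 2 (limma adjusted p = 0.0554), and Isg15 stood at the threshold without control replicate 1. By treatment 17 of 19 had a lower mean in GDNF (median -0.16), among them Mx2 (-0.49, SE 0.20) and Irf7 (-0.48, SE 0.33), and 0 were called. That count fell to 8 of 19 without GDNF replicate 2 (median 0.05) and likewise without control replicate 1 (median 0.03).

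Markers of cells that make or receive chemokines were measured beside these values. Of 18 leukocyte markers with a probe set 14 had a lower mean in replicate 2 (median -0.20), none was called, and none had a signal of 0. The median was -0.32 without GDNF replicate 1, -0.13 without control replicate 1 and -0.09 after median centring. Their summed signal was 1501.8 and 1549.4 in the GDNF and control samples numbered 2, against 1806.9 and 1774.6 in those numbered 1. The general leukocyte marker Ptprc had signals of 27.5 to 40.6, and the T cell marker Cd3e of 3.6 to 8.4, below the filter. Cd3g, another T cell marker, ran the opposite way, with 180.4 and 148.9 in the GDNF and control samples numbered 2, against 101.4 and 103.3 in those numbered 1 (0.67, SE 0.15, limma adjusted p = 0.103). It was the highest of the 13 tested, of which 11 were lower in replicate 2. S100a9 was the lowest, with 70.9 and 75.6 against 166.5 and 107.6 in the same order (-0.86, SE 0.20, limma adjusted p = 0.114). Surface epithelium markers were lower in replicate 2 in 6 of 8 genes (median -0.22) and lower in GDNF in 8 of 8 (median -0.23), with a summed signal of 6301.8 and 7202.1 in the GDNF and control samples numbered 2, against 6805.2 and 8279.5 in those numbered 1. Without control replicate 1 this was 4 of 8 by number (median -0.06) and 5 of 8 by treatment (median -0.09). All 5 smooth muscle markers had a lower mean in GDNF (median -0.26), and their median by number was -0.18. Without control replicate 1 it was 4 of 5 (median -0.07), and the median by number turned to 0.15. Endothelial markers had a median of -0.03 by number over 8 genes and stroma markers of -0.02 over 7, both turning positive after median centring (0.08 and 0.09). Granulosa markers were lower in replicate 2 in 6 of 8 genes (median -0.25, and -0.09 without GDNF replicate 1). Oocyte markers ran the opposite way, higher in replicate 2 in 7 of 8 genes (median 0.32, and 0.03 without control replicate 1). None of these was called. The part of any of these cells in the chemokine differences was not tested.

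**Figure D4:**
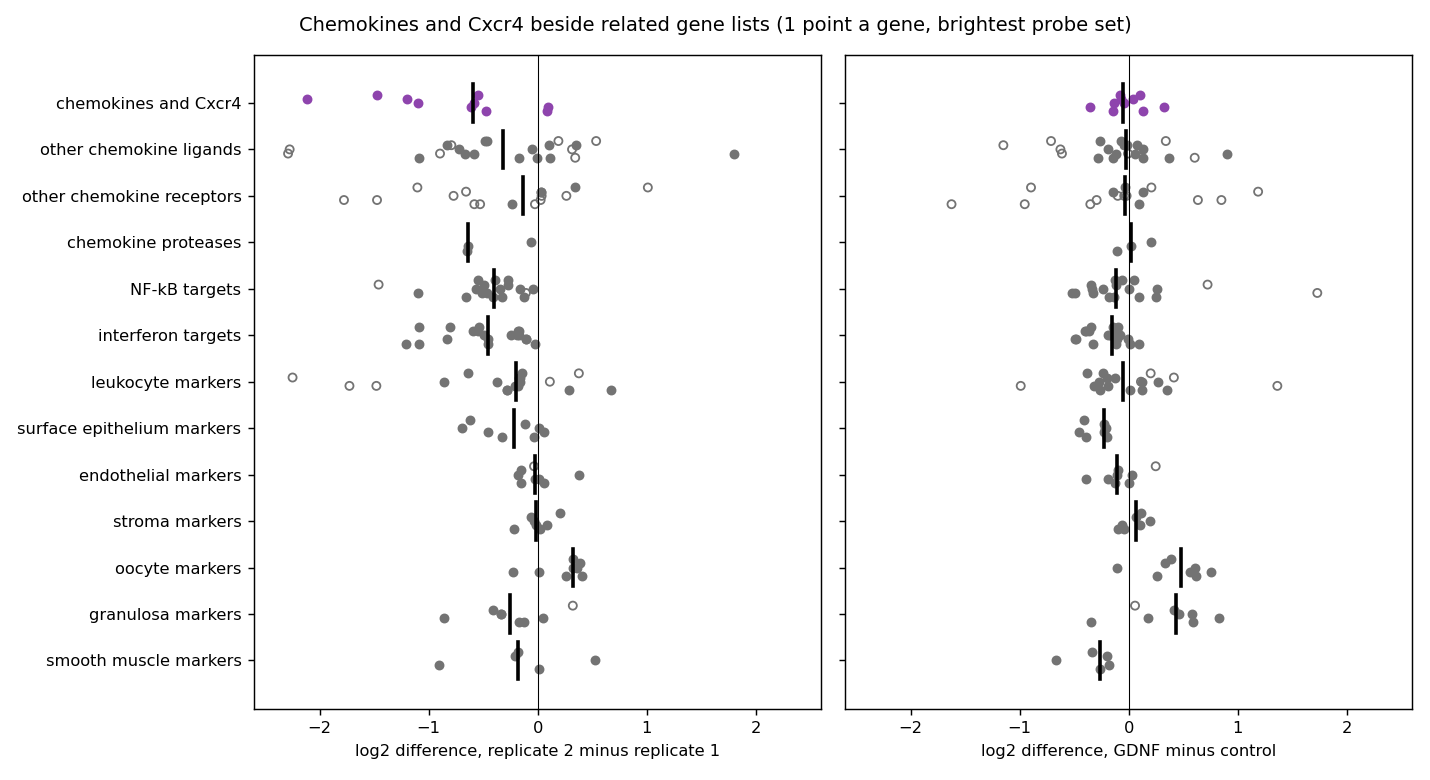
Log2 differences of the 10 genes (top row) and of related lists and cell type markers, by replicate number (left panel, replicate 2 minus replicate 1) and by treatment (right panel, GDNF minus control). Each point is the brightest probe set of a gene, open points lay below the filter, and bars are medians. By number the medians of the chemokines, NF-kB targets and interferon targets lie at -0.60, -0.40 and -0.46, and by treatment at -0.06, -0.12 and -0.16.

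Genes with the most similar pattern were sought by the distance between centred log2 profiles over the 4 samples, for Cxcr4 and for Cxcl10, which had the widest range (2.32 on the log2 scale). Nearest to Cxcl10 were Plac8 (distance 0.32), Gpx2, a glutathione peroxidase (0.36), Il6st, the shared signalling chain of interleukin 6 receptors (0.37), Kcnk1, a potassium channel (0.48), and Eeig2 (0.54). Il6st had 128.7 and 143.7 in the GDNF and control samples numbered 2, against 599.4 and 398.1 in those numbered 1, in the probe set ranked. Its other probe sets also had lower means in replicate 2, with smaller gaps of -0.21, -0.35 and -0.54 by number, against -1.84 in the one ranked. The smallest of these gaps was 445.3 and 450.7 against 532.5 and 507.8. A brighter probe set of Eeig2 had -0.55 by number, against -1.61 in the one ranked. Nearest to Cxcr4, within 0.04, were Mmachc, Rnf138, Wfdc3, Nol8 and Azi2, with log2 differences by treatment of 0.30 to 0.34. In a brighter probe set Nol8 had 192.3 and 265.9 in GDNF against 187.0 and 219.3 in control replicates 1 and 2, another order of samples. Brighter probe sets of Rnf138 and Azi2 had treatment differences of the opposite sign (-0.10 and -0.02), and further ones had 0.02 and 0.11. With 4 samples, closeness of this kind is a description of the profiles.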

How the data were processed

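RNA of 4 pools of cultured rat ovaries (2 GDNF, 2 control, grouped by their titles) was measured on Affymetrix arrays. The values the authors deposited are linear array intensities. The submitters' processing notes name MAS5, without a version. A mean trimmed by 2% on either side came to 125.03 to 125.04 for all 4 arrays, so they share 1 scale and a change in total RNA cannot be seen. Dim signals are noisy because MAS5 subtracts an estimate from mismatch probes. Detection calls were not used here.

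Of 31099 probe sets, 57 Affymetrix controls were left out. Of the other 31042, 20826 had 1 symbol in GEO's platform annotation, 436 several and 9780 none. Signals became log2(signal + 1), which understates the change of dim genes. The 18625 at or above the 40th percentile of mean log2 signal were tested with limma 3.58.1 in R 4.3.3 (lmFit, eBayes with a mean-variance trend), two-sided, with Benjamini-Hochberg adjustment over all of them and a threshold of 0.05, for GDNF minus control and for replicate 2 minus replicate 1. SE is limma's moderated standard error. With 2 samples against 2 an exact permutation test cannot go below p = 0.333, so limma's values rest on variance shared across probe sets and having 4 arrays limits the precision. The fits were also run on data simulated from limma's own variance model, which cannot show how well that model holds for these arrays.

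Where a gene had several probe sets, lists used the brightest. The members and all lists were chosen with earlier results of these data known. Besides the 10 genes, the 2 highest and 2 lowest tested genes of each related list in each comparison were named, and the 5 genes nearest in profile to Cxcr4 and to the member of widest range. Promoters and gene order are RefSeq's, build GRCr8.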

Additional observations from a re-analysis of the deposited data

How the results depend on the processing

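The 8 chemokines that split by number kept their direction by number in every alternative run, and Cxcr4 kept its direction by treatment. In these genes the groups compared did not overlap, so no run with a sample left out could turn a sign. Of the runs listed, only quantile normalization and median centring could have done so. By number 7 of 151 values for member probe sets turned, all of them in Cxcl12 and Cxcr4. Without control replicate 1 all 10 genes were lower in replicate 2, and all 10 were higher in GDNF. By treatment the signs of Cxcl1, Cxcl2, Cxcl9, Cxcl10, Cxcl11, Ccl2, Ccl5, Cx3cl1 and the dimmest Cxcl12 probe set turned when 1 sample was left out (15 of 151 values for member probe sets), and the median over the 10 genes ran from -0.49 to 0.27. It was 0.10 over all probe sets of the members. Leaving out 1 sample at a time put the median by number between -0.76 and -0.47. The count of probe sets called by number, 86 (16 higher, 70 lower), was 13 with no filter, 2 without the trend, 429 with treatment as a term and 224 after median centring (108 higher, 116 lower), which moved the median of all probe sets from -0.01 to 0.09. It ran from 11 (without GDNF replicate 2) to 251 (without control replicate 1). Member probe sets called by number were 4, against 1 with no filter, 0 without the trend, 5 with treatment as a term, 3 after median centring and 1 without GDNF replicate 2. With the replicate block, 8 probe sets were called by treatment instead of 0, none of them a member, in a fit with 1 residual degree of freedom. The differences between replicates 2 and 1 in GDNF and in control correlated at r = 0.32 across genes, and with 2 pairs this does not show that the numbers pair the samples. The causes of these changes were not tested. Low signals, as of Cxcl2, Cxcl9 and most receptors, limit what can be seen.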
